A study of Homo sapiens with 34 samples.

Results

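The stress-response genes described here are SQSTM1, PTGR1, NFE2L2, KEAP1, NQO1, HMOX1, GCLM, GCLC, TXNRD1 and SRXN1. They were taken by gene symbol from the table of splicing events and from the table of gene expression. The 10 genes are members of a set of 29324 genes with at least 1 intron event, of which 12081 had enough reads to be tested, all 10 among them. The set was selected on splicing and expression values of these same libraries, taken here as those of SQSTM1 and PTGR1, so these 2 genes are described without a test. The other 8 genes are textbook members of the pathway and were tested. They too were chosen with earlier results of these data known, so their p-values are not those of genes chosen blind.

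RNA came from hTERT RPE-1 cells, an immortalised human line derived from retinal pigment epithelium. The cells received a lentiviral hybrid guide RNA (hgRNA), which joins a Cas9 guide and a Cas12a guide so that 2 cuts can remove the DNA between them, a system called CHyMErA. They were selected with puromycin at 20 µg/ml for 72 hours and grown for a further 4 days, and total RNA without ribosomal RNA was sequenced. The 34 libraries form 17 hgRNA groups with biological duplicates. All groups, controls included, carried an hgRNA and went through the same selection. The 4 control libraries came from 2 hgRNAs aimed at intergenic DNA. Intronic deletions were made in DDX5 (hgRNAs 1 and 2), FNBP4 (hgRNAs 1 and 2) and HNRNPD (hgRNA 1). Deletions spanning an exon that the labels call a PTC exon were made in DDX17 (hgRNAs 1 and 2), HDAC7 (hgRNAs 1 and 2) and FNBP4 (hgRNAs 3 and 4). That wording comes from the treatment label, whereas the sample titles call all of these deletions intronic. Gene knockouts of DDX5, DDX17, FNBP4 and HDAC7 used 1 hgRNA each. The cells were selected for the hgRNA and not for the edit, so each library may mix edited and unedited cells, and less RNA per cell cannot be told apart from fewer cells carrying a change.

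As background, NFE2L2 encodes NRF2, a transcription factor that pairs with small MAF proteins at antioxidant response elements. KEAP1 holds NRF2 for ubiquitination and destruction, and electrophiles or oxidants that modify KEAP1 let NRF2 accumulate. SQSTM1 encodes p62, a selective autophagy receptor that binds KEAP1 and is itself an NRF2 target. Because NRF2 is controlled mainly as a protein, the NFE2L2 transcript and NRF2 activity need not move together. TXNRD1 (thioredoxin reductase 1), SRXN1 (sulfiredoxin), HMOX1 (heme oxygenase 1), GCLM and GCLC (the modifier and catalytic subunits of glutamate-cysteine ligase), NQO1 (a quinone reductase) and PTGR1 (a prostaglandin and alkenal reductase) are enzymes commonly listed among its targets.

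The guides of 2 FNBP4 hgRNAs are shown because they share their Cas9 part while TXNRD1 differed in opposite directions from the controls in the libraries that carried them. Capitals mark the last 10 bases of each Cas9 guide, next to its PAM, and the first 6 bases of each Cas12a guide.
FNBP4 intronic deletion hgRNA 2, Cas9 guide: tgtgaattccACGGTCCAAG
FNBP4 intronic deletion hgRNA 2, Cas12a guide: CACTGCcagcaactctgtgaata
FNBP4 PTC exon deletion hgRNA 3, Cas9 guide: tgtgaattccACGGTCCAAG
FNBP4 PTC exon deletion hgRNA 3, Cas12a guide: TCCAATgtgtggctggccaaact
The 2 HDAC7 deletion hgRNAs also share a Cas9 guide. For the HDAC7 knockout the labels list gaagtctgggATGAGAACAC as the Cas9 guide, which is the Cas9 guide of the FNBP4 knockout, and give the same 20 bases again as its Cas12a guide. The results for that group are therefore given for the libraries labelled HDAC7 knockout. The shared guide does not tell which label is right. FNBP4 knockout and HDAC7 knockout, wherever written below, mean the libraries labelled so.

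Promoters were searched for the core letters of the antioxidant response element because several members differed from controls in the same libraries. RefSeq windows on GRCh38.p14, from 250 bases before to 50 bases after each annotated start, were present for 9 of the 10 genes, in 14 windows. The letters TGACNNNGC, read on both strands, were found in 4 windows of 3 genes (GCLM, TXNRD1 and KEAP1), against 4687 of 35116 windows of all genes (13.3%). The matches are printed with capitals on the 9 motif letters, in the direction of transcription, and positions are counted from the start site.
GCLM, chr1:93909436-93909484, minus strand, 34 bases before the start: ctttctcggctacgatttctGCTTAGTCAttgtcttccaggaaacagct
TXNRD1 distal start, chr12:104215660-104215708, plus strand, 99 bases before the start: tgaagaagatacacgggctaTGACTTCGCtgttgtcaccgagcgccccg
TXNRD1 proximal start, chr12:104286910-104286958, plus strand, 102 bases before the start: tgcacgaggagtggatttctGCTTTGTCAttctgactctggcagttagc
KEAP1, chr19:10502774-10502822, minus strand, 31 bases before the start: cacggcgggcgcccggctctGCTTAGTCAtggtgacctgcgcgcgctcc
The KEAP1 window held another match 54 bases before the start, and the distal TXNRD1 window another 8 bases before it. A match says only that these letters are present in the window.

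Expression was read as spliced exon-exon junction reads summed over the introns of a gene, in CPM, the read count scaled to the size of the library after TMM correction. The libraries held between 12353936 and 20233610 junction reads. The 10 genes have 72 annotated introns, all of which match a GENCODE v29 junction, and 66 were above 1 CPM in controls. Between duplicates, the median gene differed by 0.1 to 0.503 on the log2 scale, and the widest gaps were in DDX17 PTC exon deletion hgRNA 1 (0.503), HDAC7 PTC exon deletion hgRNA 1 (0.387) and FNBP4 PTC exon deletion hgRNA 3 (0.367). In the 4 knockouts, replicate 1 held fewer reads across exon-intron boundaries (0.965% to 1.21%) than replicate 2 (1.91% to 2.29%) or the other 26 libraries (1.86% to 3.04%). TXNRD1, NQO1, KEAP1 and GCLM were higher in replicate 1 than in replicate 2 in all 4 knockouts. The targeted gene stood at 27.2% of the control mean in the DDX5 knockout, 73.7% in the DDX5 deletion and 74.0% in the DDX17 knockout, and its libraries lay below all controls. FNBP4 was at 313% of control after its PTC exon deletion and 126% after its intronic deletion. DDX17 (102%) and HDAC7 (84.5%) after their own deletions, HNRNPD (123%), and FNBP4 (83.9%) and HDAC7 (88.9%) in the libraries labelled as their knockouts overlapped the controls. Of 11 fixed retinal pigment epithelium markers, 5 reached 1 RPKM in the authors' control column, while RPE65, RLBP1 and TYR were under 0.1 RPKM.

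Per unit of transcript length, in the RPKM of the authors' deposited table, the control levels ran from TXNRD1 (432), SQSTM1 (371) and NQO1 (229) through PTGR1 (49.1), NFE2L2 (37.4), KEAP1 (36.3), HMOX1 (25.8), SRXN1 (24.8) and GCLC (15.9) to GCLM (10.9). The regulators NFE2L2 and KEAP1 were thus about as abundant as HMOX1 and SRXN1 and far below TXNRD1 and SQSTM1 in that column. The control column is the authors' value over their control libraries and carries no spread.

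**Figure D1:**
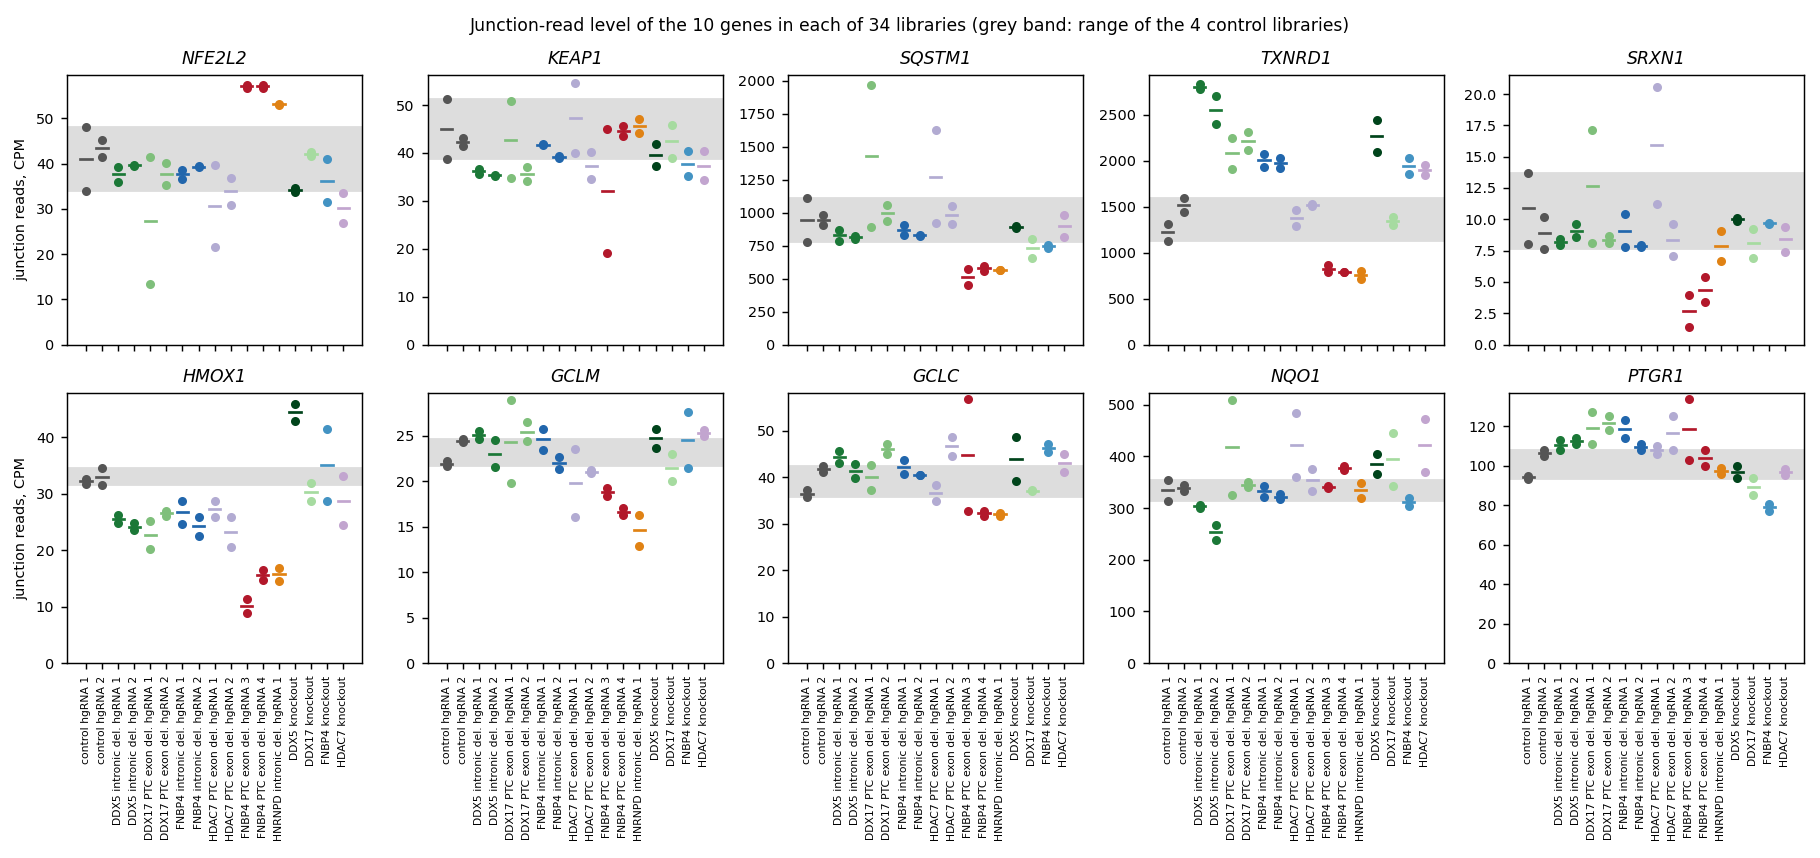
Junction-read level in CPM (vertical axis, from 0) of the 10 genes in each hgRNA group (horizontal axis). Points are libraries, bars are group means and the grey band spans the 4 control libraries. TXNRD1 ran from 713 to 2829.6 CPM, while GCLC stayed between 31.7 and 56.8 CPM.

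FNBP4 PTC exon deletion and HNRNPD intronic deletion gave the lowest levels of several targets, while TXNRD1 rose in 6 of the other 8 comparisons. Among the 8 tested genes, 4 fell and none rose after FNBP4 PTC exon deletion, and 3 fell and none rose after HNRNPD deletion. Of all genes tested, 13% fell and 13.9% rose in the first comparison, and 4.32% fell and 4.55% rose in the second. Calls are from limma voom with Benjamini-Hochberg adjustment over all 12081 genes, at an adjusted p under 0.05. The 10 comparisons share the same 4 control libraries. The share of all genes whose libraries lay wholly above or below the controls is not given, so lack of overlap is a description only.

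**Figure D2:**
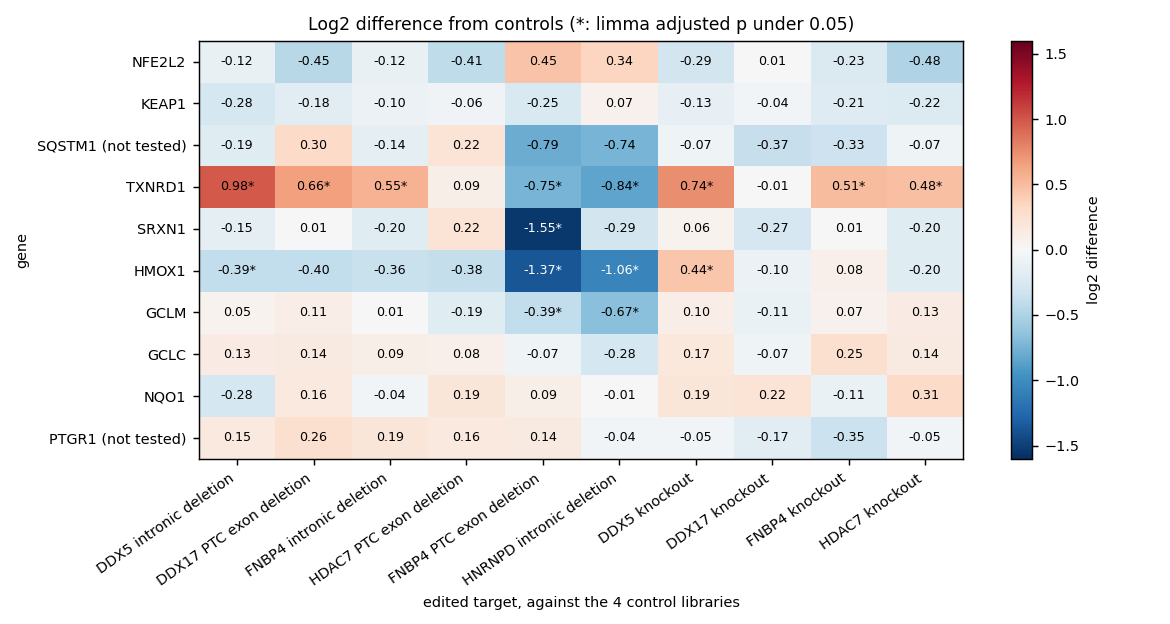
Log2 difference from controls of the 10 genes (rows) for 10 edited targets (columns), on a colour scale from blue (lower) to red (higher), with the value in each cell and a star where the limma adjusted p was under 0.05. TXNRD1 has 8 starred cells, 6 higher and 2 lower. SQSTM1 and PTGR1 were not tested.

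NFE2L2 (chr2:177227595-177392697, minus strand), the gene of NRF2, was at 48.1 and 34 CPM with control hgRNA 1 and at 41.4 and 45.3 CPM with control hgRNA 2. It was at 57.4, 56.8, 57.5 and 56.8 CPM after FNBP4 PTC exon deletion and at 53.2 and 53.0 CPM after HNRNPD deletion. All 6 of these libraries lay above all 4 controls, with differences of 0.45 (SE 0.2) and 0.34 (SE 0.24) on the log2 scale that did not pass the test (limma adjusted p = 0.0924 and 0.442). The lowest library was replicate 2 of DDX17 PTC exon deletion hgRNA 1 at 13.4 CPM, against 41.4 CPM in its duplicate. No comparison with controls called NFE2L2. FNBP4 PTC exon deletion exceeded FNBP4 intronic deletion by 0.57 (SE 0.2, limma adjusted p = 0.0307), in a contrast where 30.7% of all genes passed. Replicate 2 of DDX17 PTC exon deletion hgRNA 1, HDAC7 PTC exon deletion hgRNA 1 and control hgRNA 1 were also left out together. That choice was made after seeing the data, and these libraries were low in NFE2L2 (13.4, 21.6 and 34 CPM). The NFE2L2 difference after FNBP4 PTC exon deletion was then 0.30. In that fit NFE2L2 was −0.42 in the DDX5 knockout, −0.37 in the FNBP4 knockout and −0.59 in the libraries labelled HDAC7 knockout. Because NFE2L2 values were among those seen before the choice, no test of NFE2L2 is drawn from that fit. On the libraries of the comparison alone, the value after FNBP4 PTC exon deletion was 0.43 and passed (limma adjusted p = 0.0358).

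KEAP1 (chr19:10486120-10503741, minus strand), the repressor of NRF2, was at 38.7, 51.2, 43.2 and 41.4 CPM in the 4 controls. Its group means ran from 32 CPM (FNBP4 PTC exon deletion hgRNA 3) to 47.3 CPM (HDAC7 PTC exon deletion hgRNA 1), and none of the 16 steps between neighbouring groups in that order separated the libraries. The low mean came from 1 library at 19.1 CPM, whose duplicate was at 45.0 CPM. KEAP1 was called in no comparison, with differences from −0.28 to 0.07. Without the duplicate at 45.0 CPM, KEAP1 after FNBP4 PTC exon deletion was −0.57, with the library at 19.1 CPM alone in its group. Without the library at 19.1 CPM the difference changed sign, as given under the processing. The hgRNA 4 libraries of that deletion, at 43.6 and 45.7 CPM, lay inside the control range. On the libraries of the comparison alone, KEAP1 after DDX5 deletion was −0.27 and passed (limma adjusted p = 0.0442). Over the 2 junctions whose 50-base flanks on each side held more than 60% GC, its log2 ratio to controls there was −1.49. Over the other 3 it was −0.13. The same sums were −1.05 and −0.06 after FNBP4 PTC exon deletion, −0.07 and −0.04 after HDAC7 PTC exon deletion, and 0.09 and 0.06 after HNRNPD deletion. The part of base composition in the KEAP1 values was not tested.

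SQSTM1 (chr5:179806398-179838078, plus strand), the autophagy receptor that competes with NRF2 for KEAP1, was at 779, 1112, 981 and 904 CPM in the 4 controls. It was at 452, 571, 559 and 597 CPM after FNBP4 PTC exon deletion and at 562 and 562 CPM after HNRNPD deletion, so these 6 libraries did not overlap the controls. The differences were −0.79 (SE 0.18) and −0.74 (SE 0.22). All 7 SQSTM1 junctions were lower than in controls in both comparisons, from −1.52 to −0.46 in the first and from −0.82 to −0.47 in the second. The highest libraries were replicate 2 of DDX17 PTC exon deletion hgRNA 1 (1973 CPM) and replicate 2 of HDAC7 PTC exon deletion hgRNA 1 (1628 CPM), whose duplicates were at 892 and 919 CPM. In both of these libraries NFE2L2 was low (13.4 and 21.6 CPM) and SRXN1 and NQO1 were high. Replicate 2 of control hgRNA 1 showed the same order on a smaller scale, with SQSTM1 at 1112 CPM and NFE2L2 at 34 CPM. What these 3 libraries share was not tested. Across the 17 group means, SQSTM1 and NFE2L2 had a Pearson r of −0.89 and a Spearman rho of −0.73, which is a description of groups that include these libraries.

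SQSTM1 junctions also differed among themselves by their flanking sequence. Over the 4 junctions whose 50-base flanks on each side held more than 60% GC, the log2 ratio to controls after FNBP4 PTC exon deletion was −1.02, against −0.57 over the 3 junctions at or under 60%. After HNRNPD deletion the same sums were −0.8 and −0.69. The part of base composition in the SQSTM1 values was not tested.

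TXNRD1 (chr12:104215779-104350305, plus strand), which keeps thioredoxin reduced with NADPH, was the member that passed most often. In controls it was at 1313, 1125, 1440.1 and 1592 CPM. After DDX5 intronic deletion it was at 2775, 2829.6, 2393 and 2704 CPM, all above every control, a rise of 0.98 (SE 0.08, limma adjusted p = 4.37e-08). In that comparison 7.22% of all genes rose and 9.68% fell. The DDX5 knockout gave 2442 and 2098 CPM, a rise of 0.74 (SE 0.1, limma adjusted p = 9.36e-05), where 5.89% of genes rose and 4.11% fell. The knockout and the deletion differed by −0.24 (SE 0.1), which did not pass (limma adjusted p = 0.188), in a contrast where 4.40% of genes passed.

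The rise in TXNRD1 was also seen after DDX17 PTC exon deletion, at 2246, 1911, 2116 and 2308 CPM, with a log2 difference of 0.66 (SE 0.08, limma adjusted p = 3.83e-05). There 2.27% of all genes rose and 2.72% fell. Fitted on the libraries of that comparison alone the difference was 0.65 and did not pass (limma adjusted p = 0.0637). DDX17 knockout libraries, at 1391 and 1304 CPM, lay inside the control range (−0.01, SE 0.1, limma adjusted p = 0.975), where 0.762% of genes rose and 1.00% fell. The difference between DDX17 knockout and DDX17 deletion was −0.67 (SE 0.1, limma adjusted p = 0.000251), in a contrast where 8.87% of genes passed. The 2 edits of the same gene therefore differed in TXNRD1, and DDX17 itself was at 74.0% of control in one and 102% in the other.

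FNBP4 edits split TXNRD1 in 2 directions. Intronic deletion gave 2073, 1932, 1919 and 2027 CPM, a rise of 0.55 (SE 0.08, limma adjusted p = 0.000371), where 1.27% of genes rose and 2.25% fell. PTC exon deletion gave 868, 785, 788 and 793 CPM, a fall to below every control (−0.75, SE 0.08, limma adjusted p = 1.22e-06). The knockout gave 2026 and 1852 CPM, a rise of 0.51 (SE 0.1, limma adjusted p = 0.00264), where 4.54% of genes rose and 3.67% fell. PTC exon deletion lay 1.3 below intronic deletion on the log2 scale (−1.3, SE 0.08, limma adjusted p = 8.32e-11). The knockout lay 1.26 above PTC exon deletion (SE 0.1, limma adjusted p = 3.19e-09), and 30.7% of genes passed in that contrast too. With the shared Cas9 guide, hgRNA 2 gave 0.54 (SE 0.1, limma adjusted p = 0.0109) and hgRNA 3 gave −0.72 (SE 0.1, limma adjusted p = 6.12e-05). FNBP4 transcripts were at 126%, 313% and 83.9% of control in the intronic deletion, the PTC exon deletion and the libraries labelled knockout.

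HNRNPD deletion gave TXNRD1 at 713 and 799 CPM, a fall of 0.84 on the log2 scale (−0.84, SE 0.1, limma adjusted p = 1.71e-05). It did not differ detectably from FNBP4 PTC exon deletion (0.1, SE 0.1, limma adjusted p = 0.564), in a contrast where 9.37% of all genes passed. The libraries labelled HDAC7 knockout were at 1950.2 and 1839 CPM, a rise of 0.48 (SE 0.1, limma adjusted p = 0.00675), where 3.43% of genes rose and 3.07% fell. HDAC7 PTC exon deletion, at 1467, 1292, 1530.1 and 1507 CPM, lay inside the control range (0.09, SE 0.08, limma adjusted p = 0.634), where 1.04% of genes rose and 0.861% fell. The libraries labelled HDAC7 knockout lay 0.39 above HDAC7 PTC exon deletion (SE 0.1, limma adjusted p = 0.0261), in a contrast where 6.02% of genes passed. The calls for the FNBP4 knockout and for the libraries labelled HDAC7 knockout each rested on replicate 1, without which they were 0.45 (limma adjusted p = 0.0882) and 0.44 (limma adjusted p = 0.152). Replicate 1 is the duplicate with fewer exon-intron reads in every knockout, and the part of that difference in these calls was not tested. On the libraries of each comparison alone neither passed (limma adjusted p = 0.0705 and 0.0886).

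The TXNRD1 differences ran along the whole transcript. Of 16 introns, the 3 that belong to the distal start had at most 1 read, so the reads came from transcripts that start downstream. All 13 remaining junctions were higher than in controls after DDX5 deletion (0.78 to 1.15), DDX17 PTC exon deletion (0.45 to 0.72), FNBP4 intronic deletion (0.33 to 0.77) and in the DDX5 knockout (0.38 to 0.97). All 13 were lower after FNBP4 PTC exon deletion (−1.04 to −0.35) and HNRNPD deletion (−1.25 to −0.62). In the DDX17 knockout, 9 were lower and 4 higher, between −0.48 and 0.15.

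**Figure D3:**
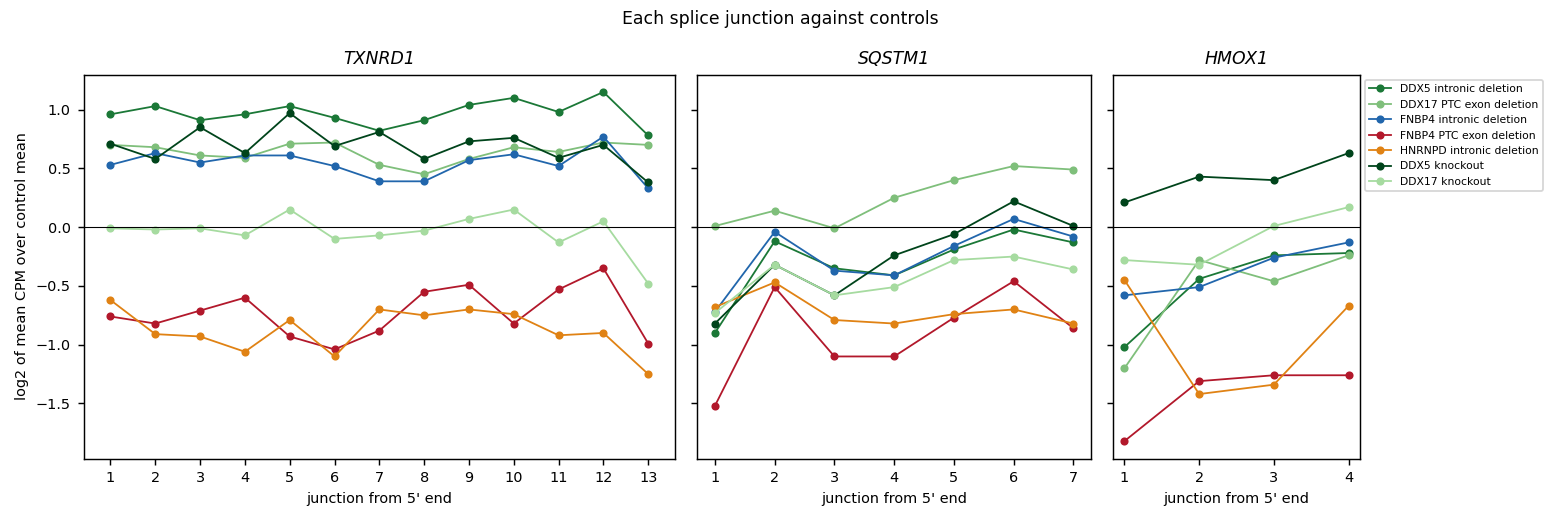
Log2 ratio of mean junction CPM to the control mean (vertical axis) for each used junction from the 5′ end (horizontal axis) of TXNRD1, SQSTM1 and HMOX1, with 1 line per edited target. The 13 TXNRD1 junctions stay on the same side of 0 in 6 of the 7 targets drawn, while the first SQSTM1 and HMOX1 junctions are lowest after FNBP4 PTC exon deletion.

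SRXN1 (chr20:646615-653370, minus strand), which repairs overoxidised peroxiredoxins, had 1 intron, so its level rests on a single junction with 21 to 307 reads per library. Controls were at 8.04, 13.7, 10.2 and 7.66 CPM. After FNBP4 PTC exon deletion the libraries were at 1.4, 3.93, 3.37 and 5.36 CPM, all below the controls, a fall of 1.55 on the log2 scale (−1.55, SE 0.3, limma adjusted p = 0.000618). HNRNPD deletion libraries, at 9.09 and 6.68 CPM, overlapped the controls (−0.29, SE 0.31, limma adjusted p = 0.647), and the 2 deletions differed by −1.26 (SE 0.36, limma adjusted p = 0.0301). That contrast rests on the 1 junction, and the authors' deposited table, described next, put the deletions close together. The FNBP4 knockout lay 1.56 above the PTC exon deletion (SE 0.35, limma adjusted p = 0.00152), and FNBP4 PTC exon deletion lay below the intronic deletion by 1.35 (−1.35, SE 0.3, limma adjusted p = 0.00143).

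For SRXN1 the authors' deposited table, which covers whole transcripts, gave smaller falls after FNBP4 PTC exon deletion, −0.70 for hgRNA 3 and −0.52 for hgRNA 4, where the junction gave −1.94 and −1.16. The authors' deposited table gave −0.64 after HNRNPD deletion (FDR 6.43e-05). It gave 0.44 for DDX5 deletion hgRNA 1 (FDR 0.00606) and 0.44 for the libraries labelled HDAC7 knockout (FDR 0.0137), while the junction gave −0.23 and −0.20. The sources thus gave the same sign after FNBP4 PTC exon deletion and HNRNPD deletion, and opposite signs for 8 of the 15 hgRNAs.

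HMOX1 (chr22:35380361-35394214, plus strand), which opens the heme ring to biliverdin, iron and carbon monoxide, was at 31.8, 32.6, 31.5 and 34.6 CPM in controls. After FNBP4 PTC exon deletion it was at 8.89, 11.4, 14.7 and 16.5 CPM, a fall of 1.37 on the log2 scale (−1.37, SE 0.13, limma adjusted p = 1.66e-07). After HNRNPD deletion it was at 16.9 and 14.5 CPM (−1.06, SE 0.16, limma adjusted p = 0.000179). All 4 HMOX1 junctions were lower in both comparisons, and all 6 libraries were below every control.

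HMOX1 after the DDX5 edits stood on opposite sides of the controls. Intronic deletion gave 26.3, 24.8, 24.8 and 23.5 CPM, and the knockout gave 46.0 and 42.9 CPM, so neither overlapped the controls. The differences were −0.39 (SE 0.12, limma adjusted p = 0.0271) and 0.44 (SE 0.14, limma adjusted p = 0.0464). The knockout exceeded the deletion by 0.84 (SE 0.14, limma adjusted p = 0.000976). The call for the deletion was lost in 7 of the 8 fits that left out 1 library (limma adjusted p 0.0526 to 0.0938, remaining without replicate 1 of control hgRNA 1), and with a GC and length trend removed (−0.15, limma adjusted p = 0.499). The call for the knockout was lost in all 6 such fits, with limma adjusted p from 0.0615 to 0.384, and with total junction reads as the only scaling (0.27, limma adjusted p = 0.232).

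In the other deletions HMOX1 was lower without passing. It was at 25.2, 20.2, 27.0 and 26.1 CPM after DDX17 PTC exon deletion (−0.40, limma adjusted p = 0.0559). It was at 24.7, 28.7, 22.6 and 25.9 CPM after FNBP4 intronic deletion (−0.36, limma adjusted p = 0.0947). HDAC7 PTC exon deletion gave 28.7, 25.8, 20.6 and 25.9 CPM (−0.38, limma adjusted p = 0.111). All 12 libraries were below every control. With total junction reads as the only scaling the DDX17 and HDAC7 values passed (−0.47 and −0.49, limma adjusted p = 0.0361 and 0.0408), and on its own libraries the FNBP4 value did (−0.37, limma adjusted p = 0.0271). The FNBP4 knockout exceeded FNBP4 PTC exon deletion by 1.45 (SE 0.16, limma adjusted p = 2.84e-07), and FNBP4 PTC exon deletion was below intronic deletion (−1.01, SE 0.13, limma adjusted p = 4.33e-06).

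GCLM (chr1:93885205-93909456, minus strand), the modifier subunit that makes glutamate-cysteine ligase efficient, was at 22.2, 21.7, 24.3 and 24.6 CPM in controls. It was at 19.3, 18.4, 17 and 16.3 CPM after FNBP4 PTC exon deletion (−0.39, SE 0.12, limma adjusted p = 0.0217) and at 16.3 and 12.9 CPM after HNRNPD deletion (−0.67, SE 0.16, limma adjusted p = 0.00821). All 6 libraries were below every control, and all 6 GCLM junctions were lower in both comparisons. Without HNRNPD replicate 2 the second value was −0.51 (limma adjusted p = 0.18). The first call was lost without either replicate of control hgRNA 2 (limma adjusted p = 0.0578 and 0.0503) or without replicate 2 of hgRNA 4 (limma adjusted p = 0.0657). GCLM was below FNBP4 intronic deletion (−0.40, limma adjusted p = 0.0156), and the FNBP4 knockout was above PTC exon deletion (0.46, limma adjusted p = 0.0232).

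GCLC (chr6:53497341-53616970, minus strand), the catalytic subunit of the same enzyme, was called in no comparison. Controls were at 37.2, 35.6, 41.1 and 42.3 CPM. After FNBP4 PTC exon deletion 3 libraries were at 32.6, 32.7 and 31.7 CPM and replicate 1 of hgRNA 3 was at 56.8 CPM, the highest of all 34 libraries. The difference was −0.07 (limma adjusted p = 0.666) with that library and −0.29 (limma adjusted p = 0.0229) without it. HNRNPD deletion gave 31.7 and 32.3 CPM, below every control (−0.28, limma adjusted p = 0.249).

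NQO1 (chr16:69706996-69726951, minus strand), the quinone reductase most often used as an NRF2 readout, was also called in no comparison. Controls were at 313, 355, 344 and 333 CPM, and FNBP4 PTC exon deletion gave 339, 342, 373 and 381 CPM (0.09, SE 0.12, limma adjusted p = 0.585). HNRNPD deletion gave 348 and 320.1 CPM (−0.01, SE 0.14, limma adjusted p = 0.978). DDX5 deletion gave 301, 306, 239 and 268 CPM, all below every control (−0.28, SE 0.12, limma adjusted p = 0.11), and passed on the libraries of that comparison alone (−0.28, limma adjusted p = 0.00855). For hgRNA 2 of that deletion the authors' deposited table gave −0.41 (FDR 0.0435). With the 3 replicate 2 libraries named for NFE2L2 left out, a choice made after seeing the data, NQO1 was 0.37 in the libraries labelled HDAC7 knockout. TXNRD1, HMOX1 and GCLM fell after FNBP4 PTC exon deletion and HNRNPD deletion, where NQO1 overlapped the controls.

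PTGR1 (chr9:111549722-111599893, minus strand), which reduces prostaglandin metabolites and reactive alkenals, moved in a narrow range. Controls were at 93.4, 94.8, 105 and 108 CPM. The lowest group was the FNBP4 knockout at 77.0 and 80.7 CPM, below every control, with a log2 difference of −0.35 (SE 0.1), and all 9 PTGR1 junctions were lower there. The highest groups were the 2 DDX17 PTC exon deletion hgRNAs, with all 4 libraries above every control. After FNBP4 PTC exon deletion and HNRNPD deletion, where SQSTM1 was lowest, PTGR1 differed by 0.14 (SE 0.08) and −0.04 (SE 0.1). Over the 17 group means SQSTM1 and PTGR1 had a Pearson r of 0.26.

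Ranking the genes by the span of their mean log2 CPM over the 17 groups placed SRXN1 first (2.68, percentile 94.0 of all genes tested), followed by HMOX1 (2.14), TXNRD1 (1.89) and SQSTM1 (1.38, percentile 75.8). PTGR1 spanned 0.62 (percentile 22.4), and the median gene spanned 0.91. The place of SRXN1 rests on a single junction with as few as 21 reads in a library. In the RPKM of the authors' deposited table SRXN1 ran from 15.4 to 33.6, HMOX1 from 6.74 to 33.6 and TXNRD1 from 233 to 825, so there SRXN1 spanned less than the other two. In the order of group means, 0 to 3 of the 16 neighbouring steps per gene separated the libraries, so most neighbours could not be told apart. By the fixed rule, the 3 genes whose group means followed SQSTM1 most closely were SNHG8 (Pearson r 0.96), UCHL1 (0.957) and TMEM208 (0.951), over 17 groups and 9285 genes with a mean of at least 2 log2 CPM. For PTGR1 they were EIF4G3 (0.912), AHCYL2 (0.901) and ASPH (0.899). For NQO1 they were HECTD3 (0.899), SAT2 (0.896) and IMMP2L (0.884), and for HMOX1 MRM3 (0.911), SNHG15 (0.905) and NT5DC3 (0.903). No member was among these genes.

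The wider pathway was read from 8 lists of 84 genes, of which 75 were tested. These lists were also chosen with earlier results of these data known. After FNBP4 PTC exon deletion 8 of the 75 rose and 16 fell, where 13.9% of all genes rose and 13% fell. Those with the smallest p among the fallers were OSGIN1 (−1.56), an NRF2-induced growth inhibitor, SLC7A11 (−0.83), the cystine importer that feeds glutathione synthesis, FTH1 (−0.65), the ferritin heavy chain, and GSS (−0.47), glutathione synthetase. Among those that rose were TXNIP (0.66), an inhibitor of thioredoxin, the autophagy receptors NBR1 (0.34) and CALCOCO2 (0.49), and IDH1 (0.44), an NADPH source. None of the 14 NRF2 regulators rose and 4 fell. Of 12 glutathione and cystine genes 1 rose and 2 fell, and of 6 thioredoxin and peroxiredoxin genes 1 rose and 2 fell. Among 11 quinone, carbonyl and conjugating enzymes 2 rose and none fell, and among 6 NADPH sources 1 rose and 1 fell. In the iron and heme list none of 7 rose and 3 fell, in the list of other textbook targets none of 5 rose and 1 fell, and of 14 autophagy receptors and LC3 relatives 3 rose and 3 fell. The median over the 75 genes was −0.04, against 0.01 over all genes.

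After HNRNPD deletion 6 of the 75 rose and 7 fell, where 4.55% of all genes rose and 4.32% fell. The fallers with the smallest p were SLC7A11 (−1.17), ME1 (−0.91), a source of NADPH, OSGIN1 (−1.31) and AKR1C3 (−1.11), an aldo-keto reductase. TXNIP (0.82), the conjugate exporter ABCC3 (0.79), the autophagy kinase ULK1 (0.63) and PTGR2 (0.81) rose. The median over the 75 genes was −0.07, against 0.02 over all genes, and this comparison shares its controls with the previous one.

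In the 4 comparisons with the widest rise of TXNRD1, 0 to 4 list genes rose. After DDX5 deletion, where 7.22% of all genes rose and 9.68% fell, 3 list genes rose, MAFF (0.65), BTRC (0.37) and NFE2L3 (0.39), and 12 fell, led by ABCC3 (−1.27), the pentose phosphate enzyme TKT (−0.65), AKR1C3 (−0.85) and OSGIN1 (−0.80). In the DDX5 knockout, where 5.89% of all genes rose and 4.11% fell, 4 rose (HMOX2 0.38, PRDX6 0.46, CALCOCO2 0.52 and TXNIP 0.38) and 4 fell (ABCC3 −1.29, AKR1C3 −1.08, TKT −0.46 and OSGIN1 −0.73). After DDX17 PTC exon deletion, where 2.27% of all genes rose and 2.72% fell, 2 rose (HMOX2 0.31 and TXNIP 0.35) and 3 fell (ABCC3 −0.80, SLC6A9 −0.66 and TKT −0.45). After FNBP4 intronic deletion, where 1.27% of all genes rose and 2.25% fell, none rose and 5 fell, led by ABCC3 (−0.91), SLC6A9 (−0.62), TRIM16 (−0.72) and TKT (−0.42).

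In the FNBP4 knockout, where 4.54% of all genes rose and 3.67% fell, HMOX2 rose (0.33) and 6 fell, led by ALDH3A2 (−0.51), AKR1C3 (−1.14), ABCC3 (−0.76) and OSGIN1 (−0.81). In the libraries labelled HDAC7 knockout, where 3.43% rose and 3.07% fell, none rose and 5 fell, led by ABCC3 (−1.43), AKR1C3 (−1.28), ULK1 (−0.79) and TFE3 (−0.69), a transcription factor of lysosomal genes. In the DDX17 knockout, where 0.762% of all genes rose and 1.00% fell, OSGIN1 (−0.94) was the only list gene called. After HDAC7 PTC exon deletion, where 1.04% rose and 0.861% fell, it was TXNIP (0.37). With the replicate number as a term in the 4 knockouts, list genes called numbered 15 in the FNBP4 knockout (7 without the term), 9 in the libraries labelled HDAC7 knockout (5) and 6 in the DDX17 knockout (1). In the same fit 9 were called after DDX17 deletion (5 without the term), 9 after FNBP4 intronic deletion (5) and 4 after HDAC7 deletion (1). Calls over all genes rose in that fit as well. They numbered 1682 in the FNBP4 knockout (991 without the term), 1484 in the libraries labelled HDAC7 knockout (785) and 673 in the DDX17 knockout. After deletion they numbered 951 for DDX17 (602), 679 for FNBP4 intronic (426) and 513 for HDAC7 (230). The counts thus do not show a gain particular to the lists. Calls in these lists are limma adjusted p under 0.05 over all genes.

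The first junction of several genes behaved unlike the rest of the gene. First here means the most 5′ junction with a mean of at least 20 reads in the 4 controls, so it can be a later one. For GCLC and KEAP1 the annotated start windows lie upstream of the exon before that junction. The first junction of NQO1 was at 26.2 ± 10.2 CPM in controls (SD, n = 4, 15.2 to 37.0). It was at 7.25 ± 0.626 CPM after DDX5 deletion (SD, n = 4, 6.51 to 8.04), 1.85 lower on the log2 scale (−1.85), while the other 4 junctions summed were −0.19. In the libraries labelled HDAC7 knockout it was at 6.28 to 8.38 CPM (−1.84), and the other junctions were 0.41. In the DDX5 knockout it was −1.62 with the others at 0.28, in the FNBP4 knockout −1.57 with −0.04, after FNBP4 intronic deletion −1.49 with 0.03 and after FNBP4 PTC exon deletion −1.39 with 0.17. HNRNPD deletion went the other way, with 33.3 and 43.5 CPM at the first junction (0.55) and −0.07 over the others.

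NFE2L2 showed the same split. Its first junction was at 3.2 ± 0.962 CPM in controls (SD, n = 4) and at 1.02 ± 0.177 CPM after DDX5 deletion (SD, n = 4), a ratio of −1.65 with the other 3 junctions at −0.05. After FNBP4 PTC exon deletion the first junction was −1.20 and the others 0.51. After HNRNPD deletion the first junction, at 6.32 and 7.25 CPM, was 1.09 and the others 0.25. The first junction of GCLM, with 5 to 17 reads after FNBP4 PTC exon deletion, was −1.95 there, against −0.28 over its other junctions. The first junction of TXNRD1 followed the rest of the gene within 0.25 in all 10 comparisons.

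First junctions shifted across all genes as well. Over 8604 genes with enough control reads, the median difference between the first junction and the others was −0.23 after DDX5 deletion, −0.31 after FNBP4 PTC exon deletion, −0.33 in the libraries labelled HDAC7 knockout and 0.18 after HNRNPD deletion. In those 4 comparisons the medians over the 9 members with several junctions were −0.70, −0.54, −0.59 and 0.57. A difference of −1 or lower was reached by 12.0%, 13.2%, 17.6% and 0.546% of all genes, and by 2, 3, 2 and 0 of the 9 members. These ratios are a description and can mix first and later junctions of a transcript. What part base composition or library preparation has in them was not tested.

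**Figure D4:**
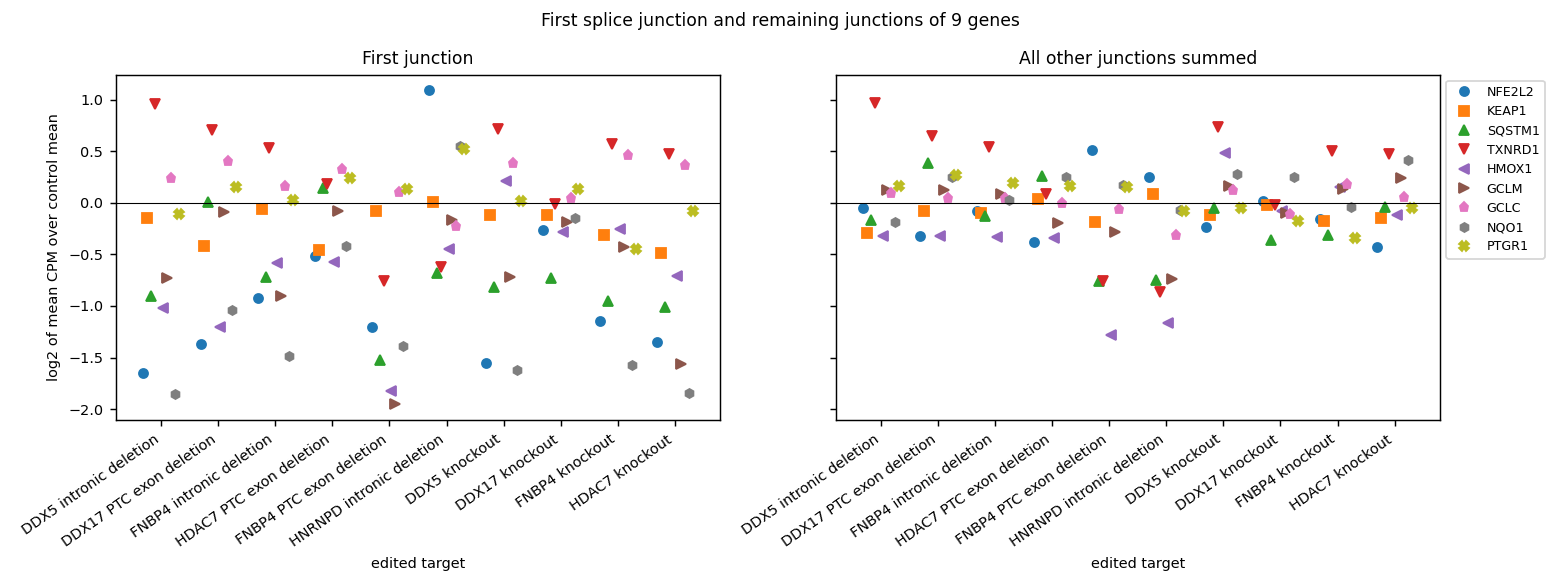
Log2 ratio to controls (vertical axis) of the first junction with enough control reads (left) and of all other such junctions summed (right) for 9 genes, by edited target (horizontal axis). NQO1 reaches −1.85 at its first junction after DDX5 deletion, while its other junctions lie between −0.19 and 0.41 in all 10 comparisons.

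Splicing was measured in 314 events of the 10 genes, of which 220 had at least 20 informative reads in every library. Among these, 2 had group means spanning over 10 percentage points, 1 in PTGR1 and 1 in SQSTM1, and 10 spanned over 5 points. The 141 events of the 8 tested genes gave 0 calls in the 10 comparisons, by limma with an adjusted p under 0.05 and a difference of 10 points. At an unadjusted p under 0.05 the number was 6 to 26. The share of all events under that limit is not given, so the number shows nothing particular to these genes. In the adjusted test alone 3 passed after DDX5 deletion and 2 after FNBP4 PTC exon deletion, all with differences under 10 points. That is 2.13% and 1.42% of the 141, against 0.774% and 0.296% of all events. Over all 213815 events the share called was 0.0276% after DDX5 deletion, 0.000468% after DDX17 PTC exon deletion, 0% after FNBP4 intronic deletion and 0% after HDAC7 PTC exon deletion. It was 0.0154% after FNBP4 PTC exon deletion and 0.00140% after HNRNPD deletion. In the knockouts it was 0.00514% (DDX5), 0.0112% (DDX17), 0.0108% (FNBP4) and 0.00702% (labelled HDAC7).

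The widest events of the tested genes were small. An alternative donor of NQO1 spanned 7.25 points, a TXNRD1 exon of 110 bases at chr12:104288931-104289040 spanned 6.79 points (83.5% to 90.3%), a GCLM exon of 66 bases spanned 5.76 points and a retained intron of KEAP1 spanned 5.63 points. For NFE2L2, GCLC, HMOX1 and SRXN1 the widest spans were 3.72, 3.58, 2.32 and 0.979 points. No TXNRD1 event was called in the comparisons in which its level changed.

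The SQSTM1 event, listed as a microexon of 13 bases, lies at chr5:179821129-179821141 on the plus strand of GRCh38. It is shown because it varied most in that gene. Its bases are in capitals after the 8 bases before it, as read from a GENCODE v29 transcript. There they lie inside a longer exon, and no annotated exon has these bounds. They end at the base before the first SQSTM1 junction (chr5:179821142-179822957), so the event ends at the donor of that junction. It is not shown to be a separate exon, and microexon is used only as the name of the event.
SQSTM1 microexon: gcttccagGCGCACTACCGCG
Its inclusion, computed from the table's corrected reads, was 64.4%, 70.4%, 68.5% and 60.2% in the 4 controls. It was 37.7%, 40%, 37.6% and 46.9% after FNBP4 PTC exon deletion, below every control, a mean of 40.6% ± 4.34 against 65.9% ± 4.54 (SD, n = 4 each). HNRNPD deletion, with a similar SQSTM1 level, gave 56.7% and 55.3%. The 8 knockout libraries were all below every control, between 34.8% and 59.1%. The highest value was 76.7%, in replicate 2 of DDX17 PTC exon deletion hgRNA 1, the library with the highest SQSTM1 level. Each value rests on 116 to 357 reads.

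The PTGR1 event lies at chr9:111599339-111599530, at the 5′ end of the gene. No read in any library joined it to an upstream exon, while 5526 reads joined it to the next exon and 1085 reads skipped it, so it compares alternative first exons rather than inclusion of an internal exon. As the 2 inclusion junctions are averaged, the empty upstream junction lowers every percentage and also changes the size of differences. In replicate 1 of control hgRNA 1, 161 of 198 reads joined this exon to the next, where the percentage was 68.5%. Only the order of the libraries can be read. Control libraries were at 68.5%, 49.5%, 56.9% and 72.5% (61.8% ± 10.6, SD, n = 4). DDX5 deletion gave 83.2%, 82.9%, 92.4% and 87.4%, and FNBP4 PTC exon deletion 89.5%, 85.1%, 86.5% and 86.0%, all above every control. The libraries labelled HDAC7 knockout were at 87.5% and 94.2%. HDAC7 PTC exon deletion (52.8% to 71.4%) and HNRNPD deletion (48.1% and 68.5%) overlapped the controls. Both events sit at first junctions. Over 8604 genes the median of the first junction minus the others was −0.23 after DDX5 deletion and −0.31 after FNBP4 PTC exon deletion. It was −0.23 in the DDX5 and FNBP4 knockouts, −0.33 in the libraries labelled HDAC7 knockout and −0.08 in the DDX17 knockout. These are medians, and not every gene shifted. The part of that shift in these percentages was not tested.

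**Figure D5:**
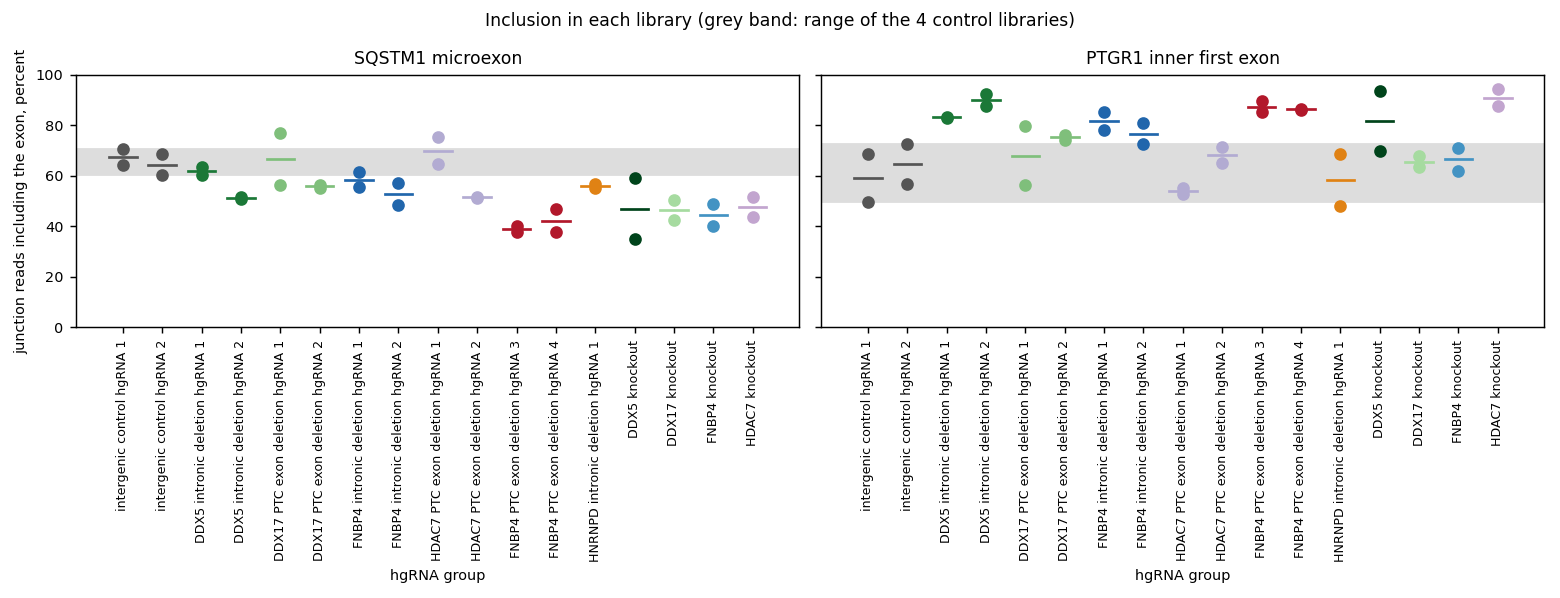
Inclusion percentage of the event listed as the SQSTM1 microexon (left) and of the inner first exon of PTGR1 (right), by hgRNA group. Both are computed as given in the text and are not plain shares of reads. Points are libraries, bars are group means and the grey band spans the 4 control libraries. The SQSTM1 microexon is lowest with FNBP4 PTC exon deletion hgRNA 3, at 37.7% and 40%.

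The authors' deposited table gives another calculation from the same libraries for each hgRNA. Of 150 pairs of gene and hgRNA, 131 had the same sign as the junction reads, with a median gap of 0.06, and all 27 pairs with a junction difference of 0.5 or more had the same sign. The widest gap was 1.24, for SRXN1 with FNBP4 PTC exon deletion hgRNA 3. For HMOX1 the authors' deposited table gave −2.01 and −1.29 with FNBP4 hgRNAs 3 and 4. For NFE2L2 the authors' deposited table gave 0.77 (FDR 5.86e-05) with hgRNA 3 and 0.50 (FDR 0.0274) with hgRNA 4, where the junction reads gave 0.44 and 0.45 without passing. For TXNRD1 the authors' deposited table had an FDR under 0.05 for all hgRNAs of the DDX5, DDX17 and FNBP4 deletions, but gave 0.43 with an FDR of 0.0644 for the libraries labelled HDAC7 knockout.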

How the data were processed

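Stranded total RNA-seq of 34 hTERT RPE-1 libraries was analysed. The authors deposited vast-tools percent values per event and library, with the reads behind them in text fields of quality scores, per the file headers. The authors also deposited RPKM per hgRNA, log2 fold changes, p-values and FDR. Per the submitters' processing notes Salmon 1.10 and edgeR were used, without an edgeR version. The aligner and the build are not given in the sources used; coordinates matched GENCODE v29 (GRCh38).

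Spliced junction reads of intron events were summed per gene, in place of the gene counts first planned for. Genes with 10 reads at the median depth in 2 libraries and 15 in total were kept. TMM factors (0.901 to 1.06) were applied and limma 3.58.1 (voom, R 4.3.3) fitted to all 34 libraries, with 1 coefficient per hgRNA group and 17 residual degrees of freedom. Each contrast set a target's hgRNAs, averaged, against the average of both control hgRNAs. Events were tested by limma on log2 of inclusion over exclusion reads with 1 added to each. The fits were tested on simulated data. The members and gene lists were chosen with earlier results of these data known. All members were named in every comparison; list genes were named where called, at most the 4 with the smallest p per comparison and direction, and for 4 members the 3 genes with the highest Pearson correlation. Alternatives were other scaling, filters, a GC and length trend, fits on the libraries of a comparison alone, a replicate block, a block in the knockouts only (added later) and leaving out each library. Columns of 2 further libraries with no sample here were not used. Python 3.11.15 was used for tables. Duplicates are labelled biological; nothing says that they came from separate infections, so p-values measure the spread between these libraries.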

Additional observations from a re-analysis of the deposited data

Results flagged for a closer look

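In 78 sets of 4 libraries, 1 library stood apart from the other 3 in 11 cases, by the gap to its nearest neighbour relative to the whole range (Dixon's 95% limit), which chance alone reaches in about 1 in 20 sets. Replicate 2 of DDX17 PTC exon deletion hgRNA 1 was the library apart for SQSTM1 (1973 CPM, others 892 to 1057), NQO1 (509 CPM, others 326 to 349.6), SRXN1 (17.1 CPM, others 8.11 to 8.64) and the SQSTM1 microexon (76.7%, others 55.0% to 56.5%). Replicate 1 of FNBP4 PTC exon deletion hgRNA 3 was apart for KEAP1 (19.1 CPM), GCLC (56.8 CPM) and TXNRD1 (868 CPM). In FNBP4 intronic deletion hgRNA 1, replicate 1 was apart for SQSTM1 (907 CPM) and GCLC (43.7 CPM) and replicate 2 for SRXN1 (10.4 CPM). Replicate 1 of DDX5 deletion hgRNA 1 was apart for NFE2L2 (36 CPM, others 39.3 to 39.8).

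The effects of 2 edits differed by a direct contrast in 14 cases (limma adjusted p under 0.05). FNBP4 PTC exon deletion minus FNBP4 intronic deletion gave 0.57 for NFE2L2, −1.01 for HMOX1, −0.40 for GCLM, −1.30 for TXNRD1 and −1.35 for SRXN1. FNBP4 knockout minus FNBP4 PTC exon deletion gave −0.67 for NFE2L2, 1.45 for HMOX1, 0.46 for GCLM, 1.26 for TXNRD1 and 1.56 for SRXN1. DDX5 knockout minus deletion gave 0.84 for HMOX1, DDX17 knockout minus deletion gave −0.67 for TXNRD1, HDAC7 knockout minus deletion gave 0.39 for TXNRD1, and FNBP4 PTC exon deletion minus HNRNPD deletion gave −1.26 for SRXN1. The SRXN1 values rest on 1 junction, and the authors' deposited table gave −0.70 and −0.52 for the FNBP4 PTC exon hgRNAs against −0.64 for HNRNPD. These contrasts share libraries and are not independent of each other.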

How the results depend on the processing

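Of the member differences that passed in the comparisons with controls, none changed sign in an alternative. Values that did not pass could: KEAP1 after FNBP4 PTC exon deletion was −0.25, and 0.02 without replicate 1 of hgRNA 3. The direct contrasts between edits and the first-junction ratios were not rerun under the alternatives. The falls of TXNRD1 and HMOX1 after FNBP4 PTC exon deletion and HNRNPD deletion, of SRXN1 after FNBP4 PTC exon deletion, and the rise of TXNRD1 after DDX5 deletion passed in all alternatives run. With total junction reads as the only scaling, the number of the 8 members called was 2 after DDX17 deletion, 1 after HDAC7 deletion, 1 in the DDX5 knockout and 0 in the HDAC7 knockout, and the median of all genes moved by up to −0.203 (DDX5 knockout). Without the low-count filter the DDX5 knockout had 1. With the GC and length trend removed DDX5 deletion had 1. With the libraries of the comparison alone, where fewer samples set the spread, the numbers were 4 (DDX5 deletion), 0 (DDX17 deletion), 2 (FNBP4 intronic deletion), 5 (FNBP4 PTC exon deletion), 1 (DDX5 knockout), 0 (FNBP4 knockout) and 0 (HDAC7 knockout). Leaving out 1 library at a time gave 1 to 2 for DDX5 deletion, 1 to 3 for DDX17 deletion, 1 to 1 for the DDX5 knockout, 0 to 1 for the FNBP4 and HDAC7 knockouts, 3 to 5 for FNBP4 PTC exon deletion and 2 to 3 for HNRNPD deletion. Where that left a group with 1 library, it was assumed to vary like the other groups. Leaving out the 3 replicate 2 libraries named in the report was an alternative chosen after seeing the data, NFE2L2 values among them. The number of members called in that fit is therefore not given. With total junction reads as the only scaling 278 genes rose and 1298 fell in the DDX5 knockout (711 and 496 with TMM), 274 and 793 in the FNBP4 knockout (548 and 443), 167 and 689 in the HDAC7 knockout (414 and 371), 58 and 220 in the DDX17 knockout (92 and 121), 184 and 476 after DDX17 deletion (274 and 328), 63 and 309 after HDAC7 deletion (126 and 104) and 1232 and 1859 after FNBP4 PTC exon deletion (1677 and 1575). Counts over all genes also moved elsewhere: with the GC and length trend removed DDX17 deletion had 978, FNBP4 intronic deletion 669, HDAC7 deletion 474, and the DDX5, DDX17, FNBP4 and HDAC7 knockouts 2103, 545, 1717 and 1707. With their own libraries alone the same comparisons had 31, 1093, 1, 664, 17, 321 and 159, and DDX5 deletion 3748. With the 3 libraries left out, DDX17 deletion had 366, HDAC7 deletion 152 and HNRNPD deletion 1757. With TMM and all libraries these comparisons had 602 (DDX17 deletion), 426 (FNBP4 intronic), 230 (HDAC7 deletion), 1207, 991 and 785 (DDX5, FNBP4 and HDAC7 knockouts), 2042 (DDX5 deletion) and 1072 (HNRNPD deletion). Where no construction is named, the cause was not tested. SRXN1 and the first junctions of GCLM and NFE2L2 rest on few reads.

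The replicate block, with the replicate number as a term, gave the same numbers of members called as the fit without it (2, 1, 1, 0, 4, 3, 2, 0, 1 and 1). Over all groups the numbers do not pair the libraries: of 136 pairs of groups, 28 had a correlation of same-numbered deviations above 0.1, with a median of −0.00638 and a range from −0.261 to 0.663. Among the 4 knockouts all 6 pairs were above it (0.369 to 0.497). A replicate block in the knockouts only, chosen after seeing the data, gave 2 members for DDX17 deletion (HMOX1 at −0.40 passed, limma adjusted p = 0.0268) and the same number as without it in the other 9 comparisons. Over all genes it called 1932, 673, 1682 and 1484 in the DDX5, DDX17, FNBP4 and HDAC7 knockouts, 951 after DDX17 deletion, 679 after FNBP4 intronic deletion and 513 after HDAC7 deletion.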
